A study of Mus musculus with 4 samples.

Results

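Solute carriers are the membrane proteins, named Slc with a family number, that move amino acids, sugars, metals, ions, vitamins and metabolic intermediates across the plasma membrane and the membranes of organelles. The genes described here are the 190 whose symbol begins with Slc and a digit and which had at least 200 reads summed over the 2 mRNA libraries, out of 239 listed Slc genes and 16211 listed genes in all. They were chosen by their summed reads alone, so their levels are a description. The cells were tumor-initiating hepatocytes from C57BL/6 mice, named TICs in the labels, carrying a control short hairpin RNA in the control library or a hairpin against the long noncoding RNA H19 in the other. The labels do not say how the cells were derived, or whether they came from a single culture. Each condition had 1 mRNA library, so no difference below has a replicate check and no p-value was computed. Of the 190 members, 185 encode transporters and 5 only bear a carrier's name: Slc9a3r1 and Slc9a3r2, scaffold proteins, and Slc4a1ap, Slc7a6os and Slc2a4rg-ps.

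Most solute carriers are secondary transporters, which use gradients set up by ATP-driven pumps, and a few families are exchangers or facilitators that follow the gradient of their own substrate. Hepatocytes use them to take up bile acids, glucose, amino acids and organic ions from blood, and the Slc25 family serves the inner mitochondrial membrane. Proliferating cells are known for high transport of glutamine, leucine, cystine and glucose.

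Depth was nearly equal, with 33578868 control reads against 34061172 in the other library. H19 itself had 43 and 40 reads, a ratio of 0.931 with a 95% counting interval of 0.589 to 1.46, so the counts of the targeted gene did not bear out the label and directions refer to "the library labelled H19 knockdown". All ratios are that library over the control after TMM scaling with 1 count added, and intervals cover counting error only. All 10 hepatocyte markers were listed, 3 above and 7 below 0 with a median log2 ratio of -0.29, and summed to 43018 and 36089 reads, led by Apob with 37279 and 30259 reads and Hnf4a with 2373 and 2764, but Alb had only 129 and 88 reads and Ttr 78 and 51. The 4 listed macrophage markers of 6 summed to 3473 and 2624 reads, almost all from Cd14, and 1 of 8 lymphocyte, 2 of 6 stellate and fibroblast, 2 of 5 endothelial and 1 of 4 erythroid markers were listed, each list below 100 reads per library. The 8 progenitor markers summed to 133294 and 145430 reads, 4 above and 4 below 0 with a median of -0.03. Almost all came from Spp1 with 72614 and 73248 reads, Krt19, Cd24a with 17252 and 18684, and Cd44 with 12498 and 12588. Afp had only 75 and 44 reads and Epcam 12 and 11. Of the markers shared with or specific to bile duct cells, Krt19 had 29919 and 39984 reads, Krt7 6162 and 4194, and Sox9 122 and 109. The part of these shifts in the results below was not tested. In such bulk samples fewer cells of a type and less RNA per cell cannot be told apart.

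Promoter windows of 4 members, picked after the matches were known, are shown because they carry motifs of factors tied to nutrient transport, and the counts of these genes follow below. The letters are the strand of the gene, 5′ to 3′, upstream of a RefSeq transcript start in GRCm38.p6. In Slc7a11 (chr3:50443623-50443709, minus strand) and Slc50a1 (chr3:89270722-89270789, minus strand) the capitals mark TGATGCAA or its reverse complement, the core of the element bound by ATF4 with C/EBP proteins. In Slc16a1 (chr3:104638434-104638499, plus strand) and Slc20a1 (chr2:129198568-129198772, plus strand) they mark CACGTG, the E-box bound by factors such as MYC and USF.
Slc7a11: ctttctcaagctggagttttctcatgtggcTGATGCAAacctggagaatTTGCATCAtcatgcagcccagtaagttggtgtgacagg
Slc50a1: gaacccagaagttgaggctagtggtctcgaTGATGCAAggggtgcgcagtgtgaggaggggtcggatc
Slc16a1: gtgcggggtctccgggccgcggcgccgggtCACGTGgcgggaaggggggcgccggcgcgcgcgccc
Slc20a1: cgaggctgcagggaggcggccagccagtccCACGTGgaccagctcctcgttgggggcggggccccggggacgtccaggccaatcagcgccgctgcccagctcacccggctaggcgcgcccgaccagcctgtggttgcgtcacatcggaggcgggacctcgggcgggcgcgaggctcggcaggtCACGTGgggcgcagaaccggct

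As a share of all reads the family sum was level between the libraries, and by that measure the level rests on Slc12a2. That gene alone had 5348 more reads in the library labelled H19 knockdown, where all members summed to 340377 and 345386 reads. The other members together had slightly fewer reads there than in the control, although that library was the deeper. TMM scaling left the counts nearly unchanged, and with it the sum of all members gave a ratio of 1.01. By that scaling the other members together were nearly level too, so the level sum did not depend on Slc12a2. The 190 members took 1.01% of control reads (95% exact binomial interval 1.010 to 1.017%) and 1.01% of those of the library labelled H19 knockdown (1.011 to 1.017%). Their median log2 ratio was -0.01, with 89 members above and 101 below 0, beside a median of 0.01 over all 11235 genes with at least 200 reads, of which 52% lay above 0. Scaled to the total count, 75 members lay above and 115 below 0, against 5385 and 5850 of all genes. The middle 50% of members ran from -0.15 to 0.09 and that of all genes from -0.12 to 0.13.

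Few members stood apart in size. A ratio of at least 1.5-fold was reached upward by 5 of 190 members, where 1.15% of all genes did, and downward by 4, where 1.08% did. Both member shares were above those of all genes, but they rest on 5 and 4 genes. No member reached 2-fold, which 0.16% of all genes did upward and 0.0356% downward. All 9 had fewer than 1000 reads: among the 63 members under that number 5 were higher and 4 lower, beside 3.74% and 3.45% of all genes with 200 to under 1000 reads, and among members with at least 1000 reads there were 0 and 0, beside 0.285% of all genes in each direction. The counting interval lay wholly above 1 in 36 members, or 18.9%, against 28.1% of all genes, and wholly below 1 in 54, or 28.4%, against 24%.

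**Figure D1:**
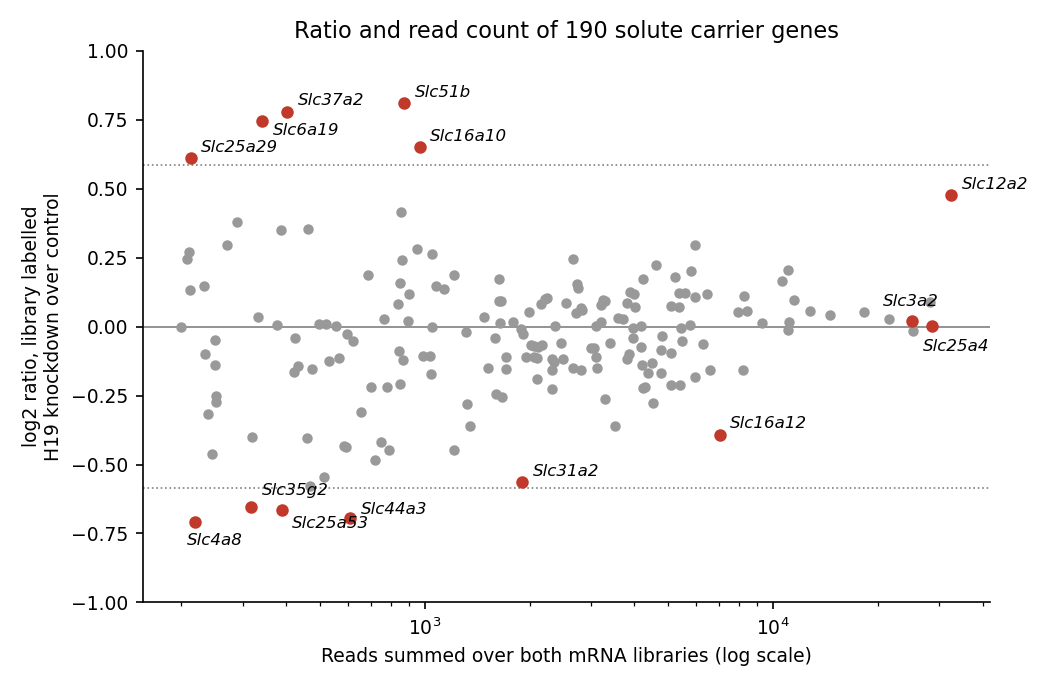
Log2 ratio of each of the 190 members (y axis) against its reads summed over both mRNA libraries (x axis, log scale), with red labelled points for the 9 genes past 1.5-fold (dotted lines) and for 5 genes with many reads. The 9 genes past 1.5-fold lie at the left, below 1000 reads, while Slc12a2 lies at the upper right with a log2 ratio of 0.48.

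The 5 members with higher counts belong to 4 substrate groups. Slc51b, the beta chain of the organic solute transporter that exports bile acids from cells (chromosome 9, 65412753 to 65422773, GRCm38), had 317 control reads against 557 in the library labelled H19 knockdown, a ratio of 1.75 (interval 1.53 to 2.02). Slc37a2, a sugar phosphate exchanger of the endoplasmic reticulum, had 148 and 255 reads (ratio 1.72, 1.40 to 2.12). Slc6a19, a sodium-coupled carrier of neutral amino acids, had 127 and 214 (1.68, 1.35 to 2.11). Of these genes Slc51b alone has an interval wholly beyond 1.5-fold. Slc16a10, a carrier of aromatic amino acids, had 376 and 591 reads (1.57, 1.38 to 1.79), and Slc25a29, a mitochondrial carrier of basic amino acids, had 84 and 129 (1.53, 1.16 to 2.04). The annotated spans of Slc51b and Slc37a2 overlap those of Rasl12 and Gm10177, whose own reads were 124 and 122, and 44 and 45.

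The 4 members with lower counts were likewise spread over groups. Slc4a8, a sodium-driven exchanger of chloride and bicarbonate, had 136 and 83 reads, a ratio of 0.613 (0.458 to 0.807). Slc44a3, of the choline transporter-like family, had 377 and 233 (0.618, 0.522 to 0.729). The X-linked orphan mitochondrial carrier Slc25a53 had 238 and 150 reads (0.631, 0.510 to 0.776), and Slc35g2, an orphan of the nucleotide sugar family, had 194 and 123 (0.635, 0.501 to 0.798). None of these 4 intervals lay wholly beyond 1.5-fold. Slc26a11, an anion transporter for sulfate, stopped just short at 281 and 188 reads and 0.670.

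**Figure D2:**
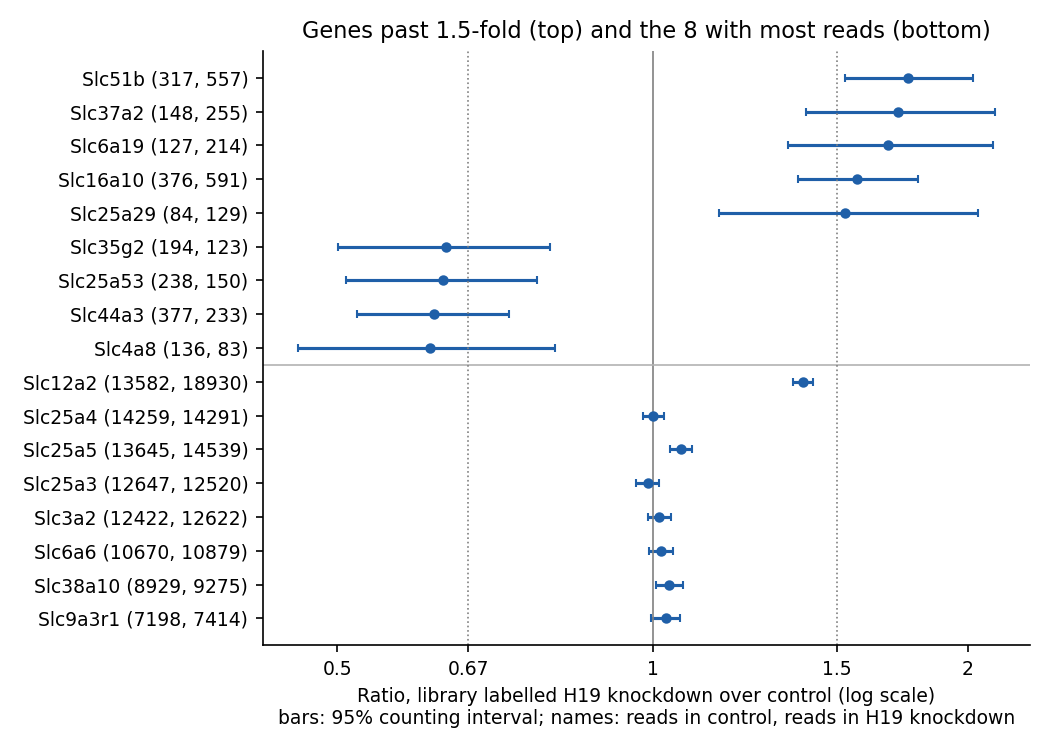
Ratio to control of the library labelled H19 knockdown (x axis, log scale) with its 95% counting interval for the 9 genes past 1.5-fold (above the line) and the 8 members with the most reads (below it); the names carry the reads in each library. Intervals are wide for the first set, and of the 8 most counted genes Slc12a2 at 1.39 is the one away from 1 by more than 1.1-fold.

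The member with the most reads also lay farthest from 1 among the 38 members with at least 5000 reads. Slc12a2, the sodium-potassium-chloride cotransporter NKCC1 that loads cells with chloride and restores their volume (chromosome 18, 57878512 to 57946821), had 13582 control reads against 18930 in the library labelled H19 knockdown. Its ratio was 1.39 (1.36 to 1.42), and its share of all member reads was 3.99% and 5.48%. Of kinases that switch this cotransporter on, Wnk1 had 12235 and 13664 reads (ratio 1.12) and Oxsr1 5220 and 5447 (1.04). Stk39, another of them, had only 28 and 40 (interval 0.859 to 2.40). Its relatives Slc12a4 and Slc12a7, which move potassium and chloride out of cells, were closer to 1, with 4117 and 4284 reads for Slc12a4 and 1374 and 1440 for Slc12a7. Slc12a2 thus accounted for 5348 of the 6573 additional reads of the 25 inorganic ion members, whose summed reads gave a ratio of 1.14 while their median log2 ratio was 0.06, with 13 above and 12 below 0. Without Slc12a2 the summed reads of the group gave a ratio of 1.04.

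After Slc12a2 the ion carriers with the most reads had ratios slightly above 1. Slc4a2, a chloride and bicarbonate exchanger that hepatocytes and bile duct cells use to secrete bicarbonate, had 5555 and 5949 reads (1.07), and Slc4a4, a sodium bicarbonate cotransporter, had 4992 and 5598 (1.12). Phosphate importers followed, with 2670 and 2911 for Slc20a1 (1.09), whose E-boxes are printed above, and 2481 and 2618 for Slc20a2 (1.05). Lower values were seen in Slc4a9 at 0.739 with 341 and 252 reads. Of the beta chains of the sodium pump that maintains the driving gradient, Atp1b1 had 3493 and 3040 reads (0.869) and Atp1b3 3193 and 3225 (1.01).

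Mitochondrial Slc25 carriers formed the largest group, with 38 members and 27.3% of member reads in both libraries. Their median log2 ratio was 0.00, with 19 members above and 19 below 0. Slc25a4 and Slc25a5, which exchange ADP for ATP, had 14259 and 14291 reads (ratio 1.00) and 13645 and 14539 (1.06), and the phosphate carrier Slc25a3 had 12647 and 12520 (0.989). These 3 genes supply ATP synthesis with its substrates, and each was within 1.1-fold between the libraries. Per kilobase of the longest annotated transcript they were also the 3 highest members, with 11010 scaled reads for Slc25a5, 7850 for Slc25a3 and 7411 for Slc25a4 in the control. Carrier genes of this type have processed pseudogenes and close copies, and how such reads were assigned is not stated, so these levels are uncertain.

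Carriers of metabolites linked to fat and citrate lay on both sides of 1. Slc25a1, the citrate carrier that feeds cytosolic lipid synthesis, had 2447 and 2776 reads (1.13, interval 1.07 to 1.20), Slc25a10, the dicarboxylate carrier, had 2128 and 2490 (1.17, 1.10 to 1.24), and Slc25a24, an ATP-magnesium and phosphate carrier, had 5141 and 5940 (1.15, 1.11 to 1.20). By contrast Slc25a20, which carries acylcarnitines into the matrix for fatty acid oxidation, had 2483 and 2053 (0.826, 0.779 to 0.876). Slc25a17, a carrier of the peroxisomal membrane, was at 0.897 with 4322 and 3879. The largest lower ratios after Slc25a53 were those of Slc25a33, a pyrimidine nucleotide carrier, with 304 and 208 reads (0.685) and of Slc25a14 with 336 and 249 (0.741). The mitoferrins Slc25a37 and Slc25a28, which bring iron into the matrix, were at 0.921 and 0.926, and the glutathione carrier Slc25a39 at 1.04. Mitochondrially encoded transcripts, which include transfer RNAs in this table, had a median log2 ratio of 0.35 over 25 listed genes, with a range of -1.30 to 1.28. Their summed reads were 157264 and 175545, a smaller ratio of 1.12. The part of that shift in the values of the carriers was not tested.

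**Figure D3:**
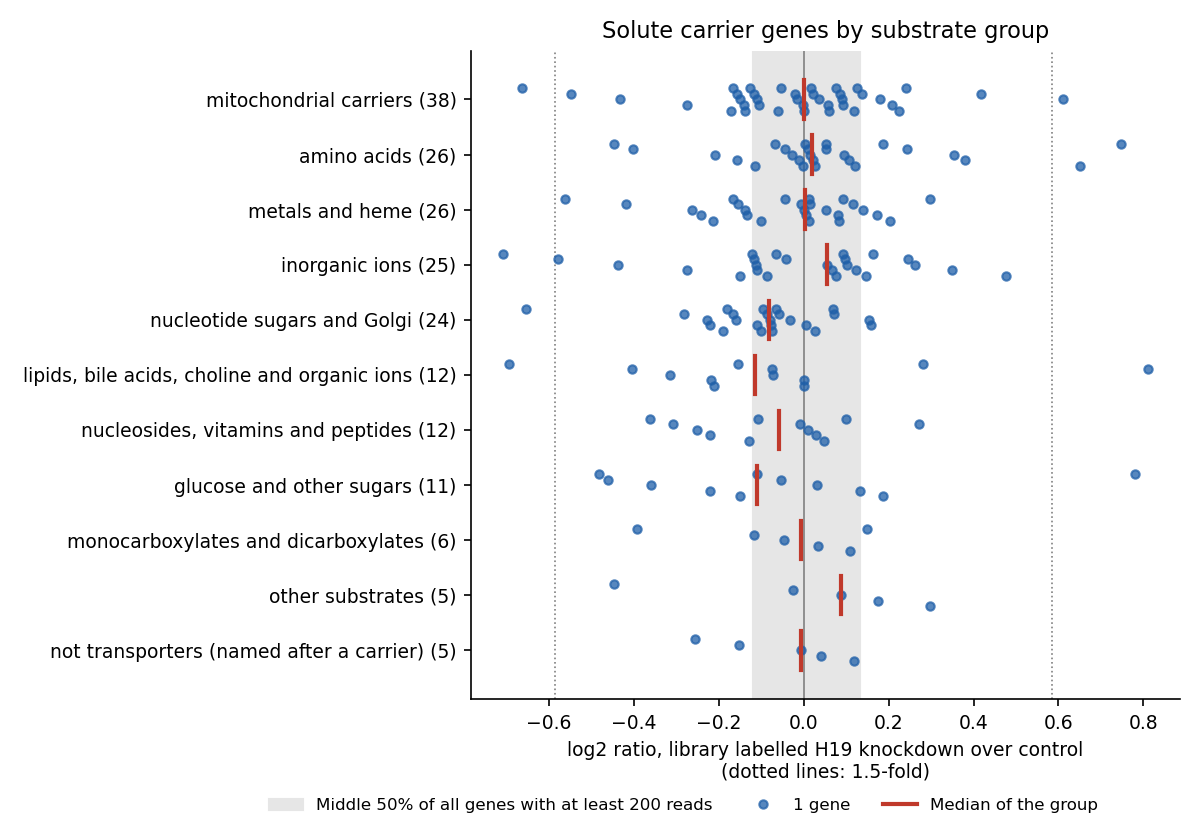
Log2 ratio of every member (blue points) by substrate group, with the number of genes in brackets, the group median as a red line, the middle 50% of all genes with at least 200 reads in grey and 1.5-fold as dotted lines. Medians of the 11 groups lie between -0.11 and 0.09, and the nucleotide sugar and Golgi points sit mostly left of 0.

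Amino acid carriers were the group with the most reads after the mitochondrial carriers, with 18.3% and 18.4% of member reads. Of 26 members 16 lay above and 10 below 0, with a median log2 ratio of 0.02. Scaled to the total count 13 lay above and 13 below 0, and with chromosome medians subtracted 12 and 14. Slc3a2, the heavy chain that several light chains need to reach the surface, had 12422 and 12622 reads, a ratio of 1.02 (0.990 to 1.04). Its light chains were Slc7a5, the leucine and glutamine exchanger, with 2568 and 2795 (1.09), Slc7a6 with 3486 and 3129 (0.897), Slc7a7 with 203 and 260 (1.28) and Slc7a11, the cystine importer, with 523 and 523 (0.999). Summed, the 4 light chains had 6780 and 6707 reads. Heavy and light chain reads thus both stayed within 1.1-fold as sums.

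Sodium-coupled and cationic amino acid carriers with the most reads were near 1, and those with fewer reads lay on both sides. Slc6a6, the taurine carrier, had 10670 and 10879 reads (1.02), Slc38a10 had 8929 and 9275 (1.04), and Slc38a2, a starvation-responsive carrier of small neutral amino acids, had 5527 and 5488 (0.992). Slc1a5, which brings in glutamine, had 1567 and 1676 (1.07), and the arginine carrier Slc7a1 had 3902 and 4050 (1.04). The neutral amino acid carriers Slc38a1 and Slc6a15 had 2867 and 3089 (1.08, 1.02 to 1.13) and 1216 and 1442 (1.18, 1.10 to 1.28). Below them in reads, Slc7a2, an arginine and lysine carrier that liver expresses, had 699 and 513 (0.734, 0.653 to 0.823), and Slc6a9, a glycine carrier on chromosome 4, had 181 and 137 (0.757).

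Of 18 measured genes for amino acid sensing and the starvation response 4 lay above and 14 below 0, beside 48% of all genes, with a median log2 ratio of -0.15, or -0.05 with each gene's chromosome median subtracted. None of the 18 reached 1.5-fold. Chac1, a glutathione-degrading enzyme induced by ATF4, had 530 and 370 reads (0.698), Rragd, a GTPase of the mTORC1 pathway on chromosome 4, had 1100 and 805 (0.731), and Ddit3 had 2157 and 1752 (0.811). Atf4 mRNA itself had 11343 and 10914 (0.961). The carriers with an ATF4 core motif in the 250 bases before a start were Slc7a11 (0.999), Slc7a7 (1.28) and Slc50a1 (0.901): 3 of 146 members with a promoter in the RefSeq table, or 2.05%, against 0.918% of 27025 genes. The antioxidant response core TGACNNNGC, bound by NRF2, was found in 30 members, or 20.5%, against 11.5% of these 27025 genes. The median log2 ratio of the 30 members was -0.00. The 27025 genes had no read limit, unlike the members, so the motif shares do not compare like sets. Both strands were searched, and a match describes these letters only.

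The sugar group had 11 members, of which 4 lay above and 7 below 0, with 10460 and 9531 summed reads. Its median log2 ratio was -0.11, or -0.07 with chromosome medians subtracted. Slc2a1, the ubiquitous glucose importer on chromosome 4, had 2313 and 1988 reads (0.859, 0.808 to 0.912), whereas Slc2a2, the glucose importer of mature hepatocytes, had 101 and 111. With the chromosome median subtracted the log2 ratio of Slc2a1 was -0.05 in place of -0.22. Per kilobase of transcript Slc2a1 stood at 887.7 and 762.2 scaled reads and Slc2a2 at 39.38 and 43.24, so the order was the same in both libraries. Slc2a9, a urate carrier despite its place in the glucose family, had 419 and 300 (0.716, 0.615 to 0.832).

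Among the sugar phosphate exchangers the 4 paralogs lay on both sides of 1. Slc37a2 was at 1.72 as given above. Slc37a1 had 142 and 103 reads (0.727), Slc37a3 had 1973 and 1540 (0.780, 0.729 to 0.834), and Slc37a4, the glucose-6-phosphate translocase needed for hepatic glucose release, had 1773 and 1814 (1.02). Slc50a1 had 1640 and 1479. Of 8 genes that trap or sense glucose 3 lay above and 5 below 0, or 2 and 6 with chromosome medians subtracted: Arrdc4 was at 0.830, Mlx at 0.837 and Txnip, an arrestin that removes glucose importers from the surface, at 0.842 with 3658 and 3082 reads.

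Monocarboxylate carriers comprised 6 members, 3 above and 3 below 0, with a median log2 ratio of -0.01. Slc16a1, the lactate and pyruvate carrier MCT1 whose E-box is printed above, had 3968 and 4286 reads (1.08, 1.03 to 1.13), and its chaperone Bsg had 23826 and 23826. Nptn, a relative of Bsg, was at 0.932, and Arl6ip5, which holds back the glutamate carrier Slc1a1, at 0.868. The lactate exporter of glycolytic cells, Slc16a3, had 127 and 123. Per kilobase Slc16a1 stood at 897 and 967.9 scaled reads against 29.31 and 28.36 for Slc16a3. Slc16a12, reported to carry creatine, had 3990 and 3045 reads, a ratio of 0.762 (0.727 to 0.799), the lowest of the 38 members with at least 5000 reads. Slc16a6 was at 1.11. The subunits that bring pyruvate into mitochondria were below 1, with 1733 and 1392 reads for Mpc1 (0.803) and 975 and 894 for Mpc2 (0.916), while the mitochondrial calcium channel Mcu had 2021 and 2409 (1.19). An E-box lay in the promoter of 24 of 146 members, or 16.4%, against 6.86% of the 27025 genes with a promoter. The latter had no read limit, so the sets are unlike. The 24 members had a median log2 ratio of -0.02.

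**Figure D4:**
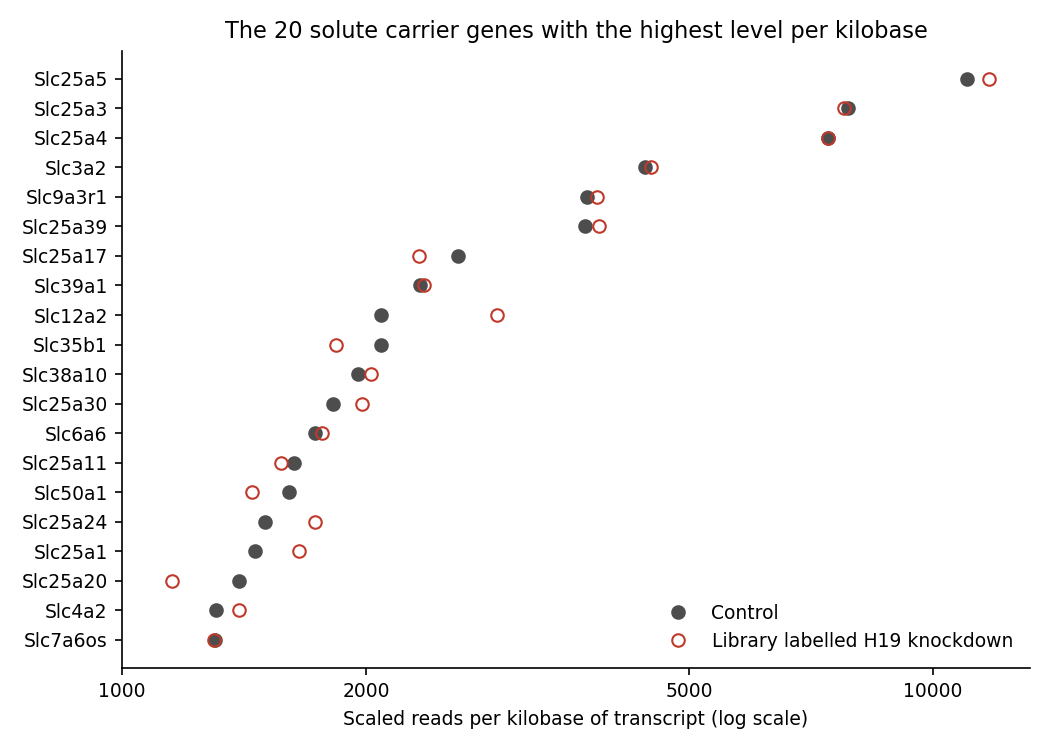
Scaled reads per kilobase of the longest annotated transcript (x axis, log scale) for the 20 members with the highest level in the control, with filled points for the control and open points for the library labelled H19 knockdown. Slc25a5, Slc25a3 and Slc25a4 lead in both libraries, and the widest gap among the 20 is that of Slc12a2 at 2084 and 2902.

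The metal and heme group had 26 members, 14 above and 12 below 0, and a median log2 ratio of 0.00. Scaled to the total count, or with chromosome medians subtracted, 9 lay above and 17 below 0. Both copper carriers were lower: Slc31a2, which acts on endosomal copper, had 1135 and 769 reads (0.677, 0.617 to 0.742), and Slc31a1, the copper importer of the plasma membrane, had 1797 and 1500 (0.834, 0.778 to 0.894). They lie 62.17 kb apart on chromosome 4, at 62280393 to 62298412 and 62360583 to 62391769, and with the chromosome median subtracted their log2 ratios were -0.39 and -0.09 instead of -0.56 and -0.26. The copper pumps Atp7a and Atp7b had log2 ratios of 0.10 and 0.18, and Cp, the copper-carrying ferroxidase of plasma, had 47910 and 34646 reads (0.722).

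Zinc carriers lay on both sides of 1. The exporter family Slc30 had 6 members with a median log2 ratio of 0.05, and the importer family Slc39 had 11 with -0.04, of which 2 intervals lay wholly above and 4 wholly below 1. Slc39a1, the zinc importer with the most reads, had 5510 and 5574 (1.01), Slc30a4, which loads zinc into vesicles, had 4620 and 4665 (1.01), and Slc39a10 had 2683 and 3299 (1.23, 1.17 to 1.29), the highest ratio of the group. Slc39a14, which also carries iron and manganese into hepatocytes, had 2903 and 2508 (0.863), and the zinc importer Slc39a3, the lowest of its family, had 869 and 735 (0.845, 0.765 to 0.933). Slc30a5 was at 1.15 and Slc30a1, the exporter induced by zinc, at 1.08 with 433 and 470 reads, beside 7278 and 8134 for the zinc-binding metallothionein Mt1 (1.12) and 1861 and 2191 for Mt2 (1.18). The metal response cores TGCACNC and TGCGCNC, bound by the zinc sensor MTF1, lay in 15.1% and 21.2% of member promoters. The shares were 11.8% and 14% of the 27025 genes with a promoter, which had no read limit.

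The iron carriers were near 1, and other iron genes lay on both sides of it. Slc11a2, the ferrous iron importer, had 2887 and 2900 reads (1.00), and Slc40a1, the iron exporter ferroportin, had 790 and 843 (1.07). Tfrc, the transferrin receptor, had 6426 and 7692 (1.20) and Trf, its ligand, 2171 and 1786 (0.822), whereas the ferritin chains differed, with 26617 and 24453 for Fth1 (0.918) and 54631 and 64842 for Ftl1 (1.19). The magnesium carrier Slc41a3 was at 0.748 with 429 and 321 reads.

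The nucleotide sugar and Golgi group comprised all Slc35 members, orphans among them, with Slc33a1 and the sulfate carrier Slc26a2. Of 24 members 18 lay below 0 with a median log2 ratio of -0.08, beside 48% of all genes, and 12 had an interval wholly below 1, where 24% of all genes did. The count below 0 was 19 when scaled to the total count and 17 with chromosome medians subtracted. Slc35a1, which delivers CMP-sialic acid for sialylation, had 724 and 596 reads (0.823, 0.737 to 0.918), Slc35c1, for GDP-fucose, had 377 and 324 (0.859), and Slc35b1, which brings ATP into the endoplasmic reticulum for its chaperones, had 3171 and 2800 (0.882, 0.838 to 0.928). Slc35e2 was at 0.854. Slc35a4 had 2623 and 2758 (1.05) and Slc35e1 3219 and 3082 (0.956). Differences in this group were small: apart from Slc35g2 all members lay between -0.28 and 0.16. Slc35a1 and Slc35e2 lie on chromosome 4, and at -0.11 and -0.05 they were nearer 0 after subtraction of its median.

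Carriers of lipids, bile acids, choline and organic ions had 12 members, 4 above and 8 below 0, with a median log2 ratio of -0.11, and scaled to the total count 2 lay above and 10 below. Slc51b led the group, but its obligate partner Slc51a was below the limit with 21 and 14 reads. The ileal bile acid importer Slc10a2 had 93 and 97 and Slc10a1, the bile acid importer of mature hepatocytes, 9 and 15. All 3 fatty acid Slc27 members were below 0, among them Slc27a3 with 132 and 106 reads (0.804, 0.615 to 1.04), as were the 3 Slc22 members, with 2741 and 2370 for Slc22a23 (0.864) and 262 and 198 for Slc22a15 (0.756). Slc44a1 and Slc44a2, which take up choline, had 2141 and 2036 and 1553 and 1555 reads.

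Vitamin, nucleoside and peptide carriers had 12 members, 5 above and 7 below 0, and a median of -0.06. The riboflavin carriers were both lower, with 756 and 589 reads for Slc52a2 (0.779, 0.698 to 0.868) and 364 and 294 for Slc52a3 (0.807, 0.690 to 0.943). The thiamine carrier Slc19a2 had 2272 and 1951 (0.858, 0.807 to 0.912), while the folate carrier Slc19a1 had 947 and 943 and the nucleoside carrier Slc29a1 1332 and 1379 (1.03). The peptide carriers Slc15a4 and Slc15a2 were at 0.915 and 0.840, and the vitamin C carrier Slc23a1 at 1.21 with 95 and 115 reads. Of 5 members with other substrates, Slc17a9, which loads vesicles with ATP, had 454 and 333 (0.733, 0.634 to 0.846), and the creatine importer Slc6a8 had 1987 and 2244 (1.13, 1.06 to 1.20). Slc18a2 was at 1.23 and the lysosomal sialic acid exporter Slc17a5 at 1.06.

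The 5 genes that only bear a carrier's name had a median log2 ratio of -0.01. Slc9a3r1, a scaffold that anchors transporters under the membrane, had 7198 and 7414 reads (1.03), and its paralog Slc9a3r2 had 907 and 760 (0.837, 0.759 to 0.923). Slc4a1ap was at 1.09, Slc7a6os at 0.996 and Slc2a4rg-ps at 0.899. Of 17 measured transporters without an Slc name 7 lay above and 10 below 0, with Spns2, which exports sphingosine-1-phosphate, at 1.20 (7732 and 9286 reads), Mfsd11 at 0.802 and Unc93b1 at 0.803.

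Position on the genome moved with some of these ratios. On chromosome 4, where 633 genes had a median log2 ratio of -0.17, 10 of 11 members lay below 0 with a median of -0.23, among them Slc31a2, Slc31a1, Slc25a33, Slc6a9, Slc2a1, Slc35a1 and Slc35e2. On chromosome 12, where 351 genes had a median of 0.28, all 3 members lay above 0. Slc25a29 lies there, and its log2 ratio was 0.34 in place of 0.61 when that median was subtracted. Smaller shifts were seen on chromosome 6, with a median of -0.10 over 518 genes, and chromosome 19, with -0.09 over 400. With these subtracted the log2 ratios were -0.26 for Slc37a3 and -0.32 for Slc41a3 on chromosome 6, and -0.30 for Slc16a12 and 0.11 for Slc3a2 on chromosome 19. The part of position in these ratios was not tested further. Slc51b and Slc37a2 are on chromosome 9 with a median of 0.02 over 610 genes.

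**Figure D5:**
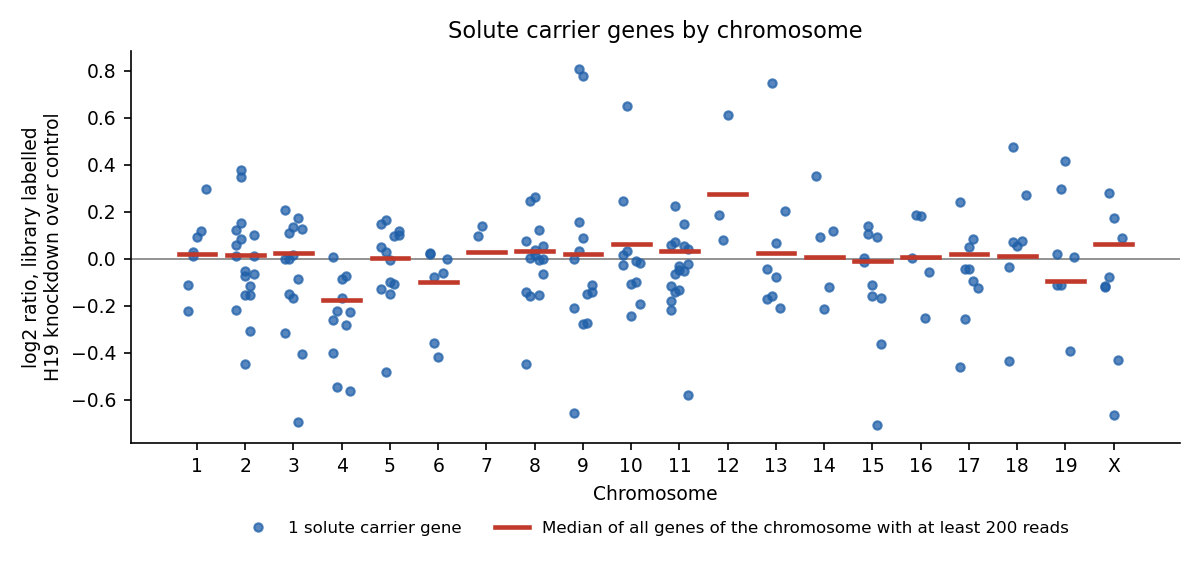
Log2 ratio of each member (blue points) by chromosome (x axis), with the median of all genes of that chromosome with at least 200 reads as a red line. Members of chromosome 4 lie around its median of -0.17 and the 3 members of chromosome 12 lie above 0.

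The limit of 200 reads cut through a continuous range. Just inside were Slc25a18 with 100 and 100 reads, Slc12a3 with 95 and 113 and Slc23a1 with 95 and 115, and just outside were Slc10a2, Slc16a4 with 95 and 77, and Slc22a18 with 114 and 58. The 49 listed Slc genes below the limit had 21 to 190 reads in all, and the counting interval lay wholly above 1 in 3 and wholly below 1 in 8 of them. These shares were not computed over all genes below the limit, so the counts describe these genes only. Annotated spans of 30 of the 190 members overlap another listed gene, among them Slc5a3 with Mrps6, Slc31a1 with Fkbp15, Slc7a7 with Oxa1l and Slc26a11 with Sgsh, and without a stated strand setting their reads cannot be told apart.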

How the data were processed

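The authors deposited raw mRNA counts by gene symbol, with 1 library per condition. Per the submitters' processing notes the tools were Trimmomatic 0.36 and STAR 2.5.2b and the build GRCm38. Which program, annotation and strand setting gave the counts is not stated. Counts of all 16211 genes were scaled with edgeR 4.0.16 TMM in R 4.3.3, and log2 ratios took 1 added count. Exact conditional binomial 95% intervals cover counting error only, and PCR copies are not independent molecules. The rest ran in Python 3.11.15 (scipy 1.17.1, pandas 2.3.3, matplotlib 3.10.9, numpy 2.4.6). Ratios and intervals were tested on simulated data. The members, substrate groups and lists were chosen with earlier results of these data known. The text names members past 1.5-fold, the 4 largest ratios and the 3 most read members of each group, the 3 genes on each side of the limit and 3 genes per partner list. Values of other genes (close paralogs, light chains, markers and carriers of known hepatocyte function) were chosen after they were seen. Promoters and positions are from RefSeq GRCm38.p6. All 190 members were placed and 146 had a promoter. Transcript lengths, used for levels only, come from GENCODE vM1 for 189 members. DESeq2 1.42.0 size factors served as an alternative scaling. The small RNA tables were not used here. Some genes that the rule names are left out of the text.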

Additional observations from a re-analysis of the deposited data

How the results depend on the processing

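Scaling to the total count, DESeq2 size factors, TMM without the 10 most counted genes, and 0.5 or 5 added counts left every value of the 93 named genes, and H19 at -0.12 to -0.09, inside its counting interval. The median log2 ratio of all members ran from -0.03 to -0.01. Past 1.5-fold, 9 members were higher and 14 lower without a read minimum against 0 and 0 with at least 1000 reads, because other genes enter or leave. The share of all listed genes past 1.5-fold without a read minimum was not computed, so the 9 and 14 have no background. There were 0 and 0 at 2-fold, and 1 and 0 where the whole interval had to lie beyond 1.5-fold. With chromosome medians subtracted 8 of the 9 remained, Slc25a29 was lost and Slc26a11 entered. The medians of amino acids, inorganic ions, metals, mitochondrial carriers and non-transporters changed sign under some settings, such as inorganic ions at -0.04 without a read minimum and metals at -0.02 when scaled to the total count. No paired analysis was possible because each condition had 1 library. The depth of 1 library per condition limits counting error but says nothing of the spread between cultures.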

Other observations

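Of the 49 Slc genes below the limit 17 lay above and 32 below 0, and those named here were chosen after their values were seen. Slc22a18, a maternally expressed imprinted gene of the Kcnq1 domain on chromosome 7 at 143473726 to 143499334, lies 895.579 kb from H19. It had 114 control reads against 58 in the library labelled H19 knockdown, a ratio of 0.513 (counting interval 0.364 to 0.703). Slc38a4, another imprinted carrier, had 25 and 35 reads. Slc5a2, the renal glucose importer, had 8 and 28 reads and Slc43a3, a purine carrier, 59 and 99.

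The bile acid importer Slc10a1, the citrate importer Slc13a5 and the glutamine carrier Slc38a3, which liver expresses, had 9 and 15, 32 and 26, and 11 and 11 reads. The bile acid receptor Nr1h4, known to induce Slc51b, had 4744 and 6718 reads (ratio 1.41, interval 1.36 to 1.47). The basolateral export pump Abcc3 had 13279 and 16504 (1.24, 1.21 to 1.27) and the canalicular pump Abcb11 only 7 and 14 (1.87, 0.755 to 5.85). Slc51a, the partner chain of Slc51b, had 21 and 14 (0.681, 0.313 to 1.37). Nr1h4, Abcc3 and Abcb11 were looked up after the ratio of Slc51b was known, and a link between these genes was not tested. Cyp7a1 and Cd74 were also looked up afterwards: Cyp7a1 was not among the listed genes and Cd74 had 14 and 14 reads.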
